A study of Homo sapiens with 24 samples.

Results

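Glioma cells can hold both neural stem and astrocyte gene programmes, and 10 genes commonly used to read these programmes are described here across 2 human glioma cell lines, their temozolomide-resistant derivatives and treatment with STM2457. The genes were chosen by name, with earlier results of these data known. SOX2, POU3F2, SALL2 and SOX9 encode transcription factors, and NES and GFAP encode intermediate filaments. PROM1 and CD44 encode surface proteins, and S100B and FABP7 encode calcium-binding and lipid-binding proteins. The 10 genes stand among 34496 gene identifiers that the tables of the series list between them. RNA was sequenced in 24 libraries, 3 for each of 8 groups. STM2457 is a small-molecule inhibitor of METTL3, the enzyme that writes N6-methyladenosine (m6A) on messenger RNA, and temozolomide is the alkylating drug used against glioblastoma. U87 MG and LN229 are widely used glioblastoma lines, and U87-R and LN229-R are lines resistant to temozolomide made from them.

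The groups were U87-R treated with STM2457, U87-R with DMSO, U87 MG with STM2457 and U87 MG with DMSO, and the same 4 groups of LN229-R and LN229. STM2457 was given at 50 µM for 96 hours, and controls received an equal volume of DMSO. Medium of both resistant lines held 50 µM temozolomide in treated and control cultures alike, so a resistant line differed from its parental line in history and also in the drug present. U87 MG and U87-R grew in EMEM with 10% serum and their libraries were made with a TruSeq Stranded kit after poly(A) selection and fragmentation. LN229 and LN229-R grew in DMEM with 5% serum and their libraries were made with a Watchmaker kit, so line, medium and kit cannot be told apart between the families. The labels do not say whether the 3 replicates of a group were separate cultures, or whether a resistant line was 1 clone, so each p-value reflects the spread among the samples at hand, which may be technical. In cultures measured in bulk, fewer cells expressing a gene and less RNA per cell cannot be told apart.

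Values were normalized counts in 6 tables, each normalized separately: resistant against parental line with DMSO in each family, and STM2457 against DMSO in each of the 4 lines. Library sums of normalized counts ran between 21232924 and 25349361 in U87 tables and between 24101385 and 28716587 in LN229 tables. Every DMSO library stood in 2 tables. In the U87 family each one matched the library of the same name and number in the other table. In the LN229 family each DMSO library of the resistance table instead matched the library of the same number that carries the other line's name in the STM2457 tables, with an SD of log2 ratios between 0.0579 and 0.0619 across genes, against 0.346 to 0.406 for the library of the same name. The names LN229 and LN229-R are therefore exchanged in 1 of the 2 places, and the values do not say which. Groups of this family are named below as their own table labels them, the direction of the LN229-R against LN229 comparison would turn round if that table's names were the wrong ones, and in the other case the names of both LN229 STM2457 comparisons would change places. The DMSO library with number 2 that is labelled LN229-R in its STM2457 table also stood apart, with 4.24% of its normalized counts on ribosomal protein genes against 2.57% and 2.73% in its group mates.

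Neural stem cells and radial glia express SOX2, which keeps them undifferentiated, nestin (NES) and the brain fatty acid binding protein FABP7. SOX9 acts later, when neural progenitors turn to making glia, and GFAP and S100B mark mature astrocytes. In glioblastoma POU3F2, SOX2 and SALL2, together with OLIG2, have been described as core factors of stem-like tumour cells, PROM1 (CD133) as a surface marker of such cells, and the hyaluronan receptor CD44 as a marker of mesenchymal tumour cells. METTL3 methylates adenosines within a short consensus of which GGACT is the most common form, and the mark can alter the splicing, stability and translation of a messenger RNA.

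The consensus is present in the transcripts of all 10 genes. In GENCODE 29 on GRCh38, with 1 transcript per gene, GGACT occurred at a median of 0.886 per kilobase in the 10 transcripts, against 0.934 per kilobase over 19599 genes with quartiles of 0.531 and 1.42. CD44 held 5 matches, all in its coding sequence, NES held 5 and POU3F2 held 4. S100B and FABP7, the shortest transcripts, held 1 each, in the 3′ UTR of S100B and in the coding sequence of FABP7. For each gene the match nearest the stop codon whose window lay within 1 exon was taken, so closeness to the stop was chosen. The following windows of the RNA strand show this 1 match per gene for the genes that changed with STM2457, with GGACT in capitals and written as DNA. They are CD44 at chr11:35229186-35229210 on the plus strand (coding, exon 18), POU3F2 at chr6:98836113-98836137 on the plus strand (coding, exon 1), S100B at chr21:46599117-46599141 on the minus strand (3′ UTR, exon 3), FABP7 at chr6:122780365-122780389 on the plus strand (coding, exon 2), SOX9 at chr17:72124663-72124687 on the plus strand (3′ UTR, exon 3), NES at chr1:156669314-156669338 on the minus strand (coding, exon 4) and SOX2 at chr3:181713546-181713570 on the plus strand (3′ UTR, exon 1). A match says only that the letters are present; methylation was not measured in these tables.
CD44: aaagccaagtGGACTcaacggagag
POU3F2: cctcccggagGGACTctgccgggcg
S100B: ctggccccagGGACTcttgttaaca
FABP7: gtggtcatcaGGACTctcagcacat
SOX9: acgagaaactGGACTttttaaaccc
NES: cctcaggggaGGACTaggaaaagac
SOX2: gagagatcctGGACTtctttttggg

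With STM2457 in libraries labelled LN229, FABP7 had the largest fall among the members and CD44 the largest rise that passed. Their promoters, from RefSeq on GRCh38.p14, run from 250 bases before to 50 after the annotated start. The motifs searched were TGANTCA (AP-1), ACAANG (SOX factors), ATGCAAAT (the octamer of POU factors) and CCAAT, on both strands. The FABP7 promoter, chr6:122779466-122779765 on the plus strand, held ACAANG at position -162 and CCAAT at -211, -168 and -153, shown in capitals (ATTGG where the match is on the other strand). The CD44 promoter, chr11:35138921-35139220 on the plus strand, held none of the motifs in this window and is shown without capitals. Of 35116 promoters of this length, 35.5% held ACAANG, 34.6% CCAAT, 7.71% TGANTCA and 1.77% ATGCAAAT. Of the 10 genes, 7 had an entry in that table.
FABP7 promoter: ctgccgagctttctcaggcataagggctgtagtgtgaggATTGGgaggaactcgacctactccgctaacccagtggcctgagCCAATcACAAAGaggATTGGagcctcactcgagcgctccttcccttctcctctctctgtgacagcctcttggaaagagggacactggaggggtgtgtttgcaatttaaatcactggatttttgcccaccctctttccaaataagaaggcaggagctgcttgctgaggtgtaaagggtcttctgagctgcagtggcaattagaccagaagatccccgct
CD44 promoter: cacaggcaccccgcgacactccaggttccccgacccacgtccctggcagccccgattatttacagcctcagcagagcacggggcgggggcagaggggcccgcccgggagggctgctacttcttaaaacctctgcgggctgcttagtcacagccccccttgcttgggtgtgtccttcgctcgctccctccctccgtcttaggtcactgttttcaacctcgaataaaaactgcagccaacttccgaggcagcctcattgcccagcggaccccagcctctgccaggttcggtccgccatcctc

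With STM2457 in the libraries labelled LN229, CD44 rose, S100B and FABP7 fell strongly, and NES and SOX2 fell by smaller amounts. Of 9 members tested, 1 rose and 4 fell by limma at an adjusted p under 0.05, where 49.7% of 17107 genes passed, so the share of members that passed was close to that of all genes. The members' median log2 change was -0.44, against 0.00 over all genes tested. Members with a mean under 10 normalized counts in a table were not tested there.

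Among the transcription factors, SOX2 had 827, 661 and 791 normalized counts with STM2457 and 1126, 903 and 1065 with DMSO. The groups did not overlap, and SOX2 fell by 0.44 on the log2 scale (SE 0.12, adjusted p = 0.017 by limma). It no longer passed without LN229 DMSO replicate 1 (adjusted p = 0.068) or replicate 3 (adjusted p = 0.063). POU3F2, a POU-domain factor of neural progenitors, had 559, 459 and 834 normalized counts with STM2457 and 405, 408 and 505 with DMSO. These groups overlapped, and the log2 change of 0.45 (SE 0.21) had an adjusted p of 0.10 by limma, which became 0.015 without LN229 STM2457 replicate 2 (log2 change 0.64) and 0.29 without replicate 3 (0.21). SOX9 had 96.0, 52.1 and 57.7 normalized counts with STM2457 and 148, 89.6 and 84.3 with DMSO, and its log2 change of -0.64 (SE 0.31) had an adjusted p of 0.11 by limma. Its groups overlapped through STM2457 replicate 1, and without that library the log2 change was -0.91 and passed (adjusted p = 0.038), whereas without LN229 DMSO replicate 1 it was -0.39 (adjusted p = 0.35). SALL2, a zinc finger factor, ranged from 183 to 255 normalized counts with STM2457 and from 217 to 288 with DMSO and did not pass (log2 change -0.20, SE 0.18, adjusted p = 0.37).

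NES, whose filament protein is the usual marker of neural progenitors, had 8916, 8623 and 7330 normalized counts with STM2457 and 11300, 11100 and 11791 with DMSO. All 3 treated libraries lay below all controls, and NES fell by 0.46 on the log2 scale (SE 0.10, adjusted p = 0.0047 by limma). GFAP, the classical astrocyte filament, was low and uneven, with 7.20, 81.7 and 20.8 normalized counts with STM2457 and 4.55, 227 and 16.2 with DMSO. Replicate 2 was the highest library in both groups, and the log2 change of -0.19 had an SE of 1.31.

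CD44 had 29455, 34823 and 32573 normalized counts with STM2457 and 14248, 12695 and 14104 with DMSO. The lowest treated library held more than any control, and CD44 rose by 1.24 on the log2 scale (SE 0.10, adjusted p = 5.8e-05 by limma). S100B, a calcium-binding protein of astrocytes, had 4585, 2819 and 3254 normalized counts with STM2457 and 13650, 14944 and 12939 with DMSO. It fell by 1.99 on the log2 scale (SE 0.17, adjusted p = 5.5e-05), again with no overlap. FABP7, which carries fatty acids in radial glia, had 860, 483 and 967 normalized counts with STM2457 and 3828, 4079 and 3155 with DMSO. It fell by 2.31 on the log2 scale (SE 0.24, adjusted p = 0.00016), the largest change among the members in this table. PROM1 was not analysed in this table.

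**Figure D1:**
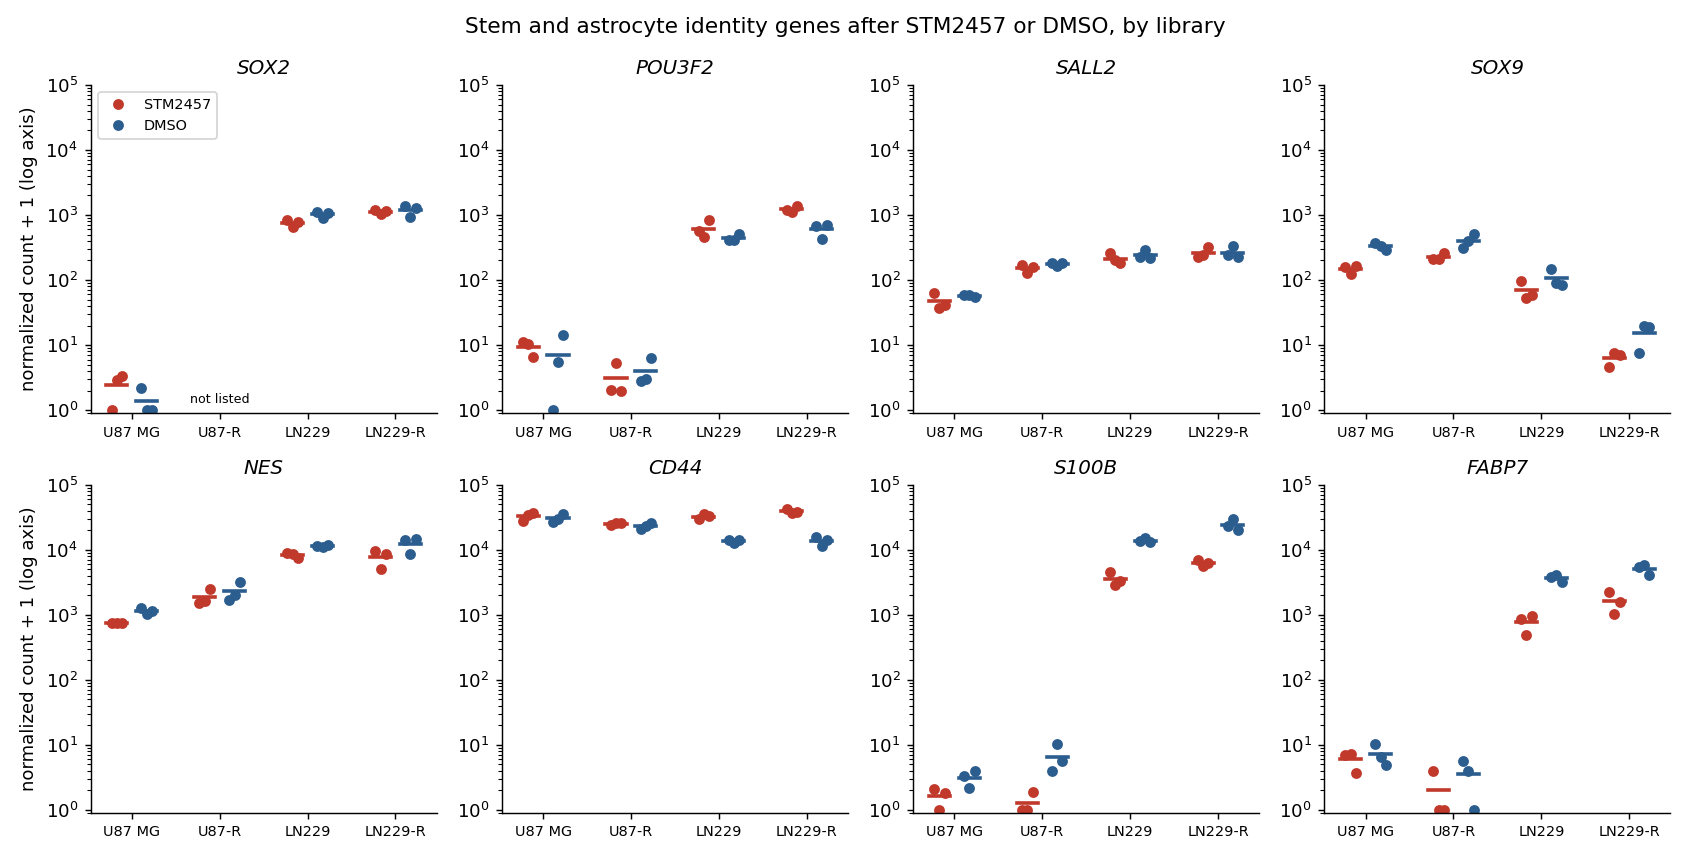
Normalized counts of the members other than GFAP and PROM1 in each library (points, with bars for group means). STM2457 is left of DMSO in each of the 4 lines, on a logarithmic axis of normalized count + 1. SOX2 is marked as not listed in U87-R. CD44 libraries with STM2457 lie above those with DMSO in both LN229 lines and among them in both U87 lines. S100B and FABP7 lie lower with STM2457 in both LN229 lines. S100B also lies lower with STM2457 in both U87 lines, at values near the floor that were not tested.

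With STM2457 in the libraries labelled LN229-R, CD44 and POU3F2 rose and S100B and FABP7 fell. Of 8 members tested, 2 rose and 2 fell, where 38.6% of 17063 genes passed. Their median log2 change was -0.39, against -0.02 over all genes. Both LN229 comparisons have control libraries of their own.

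CD44 had 42534, 36566 and 38334 normalized counts with STM2457 and 15484, 11490 and 14013 with DMSO. It rose by 1.53 on the log2 scale (SE 0.16, adjusted p = 0.00035 by limma), with no overlap. S100B had 6923, 5675 and 6272 normalized counts with STM2457 and 23268, 29518 and 20442 with DMSO. Every control held more than any treated library, and S100B fell by 1.94 on the log2 scale (SE 0.16, adjusted p = 0.00014). FABP7 had 2245, 1041 and 1596 normalized counts with STM2457 and 5502, 5857 and 4042 with DMSO. FABP7 fell by 1.71 on the log2 scale (SE 0.27, adjusted p = 0.0021), and its groups did not overlap either.

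POU3F2 had 1212, 1118 and 1392 normalized counts with STM2457 and 686, 434 and 700 with DMSO. Its 3 treated libraries all exceeded the controls, and it rose by 1.06 on the log2 scale (SE 0.20, adjusted p = 0.0046 by limma). SOX2 had 1187, 1027 and 1150 normalized counts with STM2457 and 1379, 927 and 1298 with DMSO. The treated libraries lay among the controls, and the log2 change was -0.08 (SE 0.16, adjusted p = 0.72). SALL2 averaged 262 ± 50.1 normalized counts with STM2457 and 263 ± 56.8 with DMSO (SD, n = 3 each), with a log2 change of 0.00 (SE 0.21).

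SOX9 was just under the minimum for testing here, with a mean of 9.89 normalized counts: it had 3.60, 6.59 and 6.06 with STM2457 and 6.64, 18.4 and 18.1 with DMSO. Its treated libraries lay below its controls by a narrow margin, and no fold change is given. NES had 9552, 5000 and 8481 normalized counts with STM2457 and 14344, 8535 and 14421 with DMSO. Its log2 change of -0.71 (SE 0.29) had an adjusted p of 0.084 by limma. The lowest control was the library that stood apart, and without it the log2 change was -0.96 and passed (adjusted p = 0.032). The lowest treated library was number 2 as well, and without that one the log2 change was -0.43 (adjusted p = 0.19). Same-numbered libraries deviated together in this table, and with the replicate number as a block NES also passed (adjusted p = 0.0016), as did 8444 genes in all. GFAP had 5.93, 6.24 and 3.08 normalized counts with STM2457 and 5.58, 89.3 and 0.662 with DMSO, where replicate 2 again was the highest control. PROM1, a pentaspan membrane protein, had at most 5.60 normalized counts in any library of this table and was not tested.

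With STM2457 in U87 MG, SOX9 and NES fell, and CD44 did not pass. Of 5 members tested, 2 fell and none rose, where 13.6% of 16407 genes passed. Their median log2 change was -0.60, against -0.01 over all genes. SOX9, a glial fate factor, had 155, 123 and 165 normalized counts with STM2457 and 367, 332 and 292 with DMSO. No treated library reached a control, and SOX9 fell by 1.16 on the log2 scale (SE 0.18, adjusted p = 0.0046 by limma).

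NES had 754, 746 and 757 normalized counts with STM2457 and 1281, 1020 and 1128 with DMSO. The treated libraries were closely alike and below all controls, and NES fell by 0.60 on the log2 scale (SE 0.11, adjusted p = 0.011 by limma). Without U87 MG STM2457 replicate 2 its adjusted p was 0.056. CD44 was abundant in both groups, with 27984, 33615 and 37059 normalized counts with STM2457 and 26625, 29761 and 35240 with DMSO. The groups overlapped over most of their range, and the log2 change was 0.11 (SE 0.14, adjusted p = 0.66). SALL2 ranged from 36.4 to 61.9 normalized counts with STM2457 and from 54.4 to 58.1 with DMSO (log2 change -0.32, SE 0.28). GFAP had 1.67, 2.24 and 3.70 normalized counts with STM2457 and 51.2, 12.8 and 0.741 with DMSO. The controls alone spanned the treated libraries, and the log2 change of -1.65 (SE 1.13) did not pass. Without U87 MG DMSO replicate 3 it was -2.96 and passed (adjusted p = 0.046 by limma). That was the end of a range from -2.96 to -1.47 over 5 libraries left out. Without U87 MG DMSO replicate 1, the highest control, GFAP was under the minimum mean and was not tested.

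In U87-R, SOX9 fell and was the 1 member of 4 tested that passed, where 14.7% of 16185 genes passed. The members' median log2 change was -0.25, against 0.00 over all genes. SOX9 had 209, 210 and 258 normalized counts with STM2457 and 309, 397 and 507 with DMSO. The groups did not overlap, and SOX9 fell by 0.82 on the log2 scale (SE 0.20, adjusted p = 0.028 by limma). The call was lost without U87-R STM2457 replicate 1 or 2, or without U87-R DMSO replicate 2 or 3, with adjusted p between 0.056 and 0.10.

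NES had 1515, 1639 and 2519 normalized counts with STM2457 and 1665, 2033 and 3208 with DMSO. Each treated library lay below the control of its own number while the groups overlapped, and the log2 change of -0.26 (SE 0.26) did not pass. Same-numbered libraries deviated together here as well, and with the replicate number as a block NES passed (adjusted p = 0.030), as did 4796 genes in all. CD44 had 23917, 25824 and 26025 normalized counts with STM2457 and 21073, 22754 and 26077 with DMSO, with a log2 change of 0.12 (SE 0.10). SALL2 ranged from 125 to 168 normalized counts with STM2457 and from 164 to 182 with DMSO (log2 change -0.24, SE 0.18).

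The remaining genes were at or near the floor in the U87 family. POU3F2 reached at most 13.4 normalized counts in any U87 library, PROM1 15.5, FABP7 9.15, S100B 9.17 and SOX2 2.34, and none of them was tested there. SOX2 had a row in the U87 MG STM2457 table but was not analysed in the U87-R one or in the U87 resistance table. Side by side and without a test, since tables were normalized separately and kits differed, S100B averaged 24409 ± 4644 normalized counts in LN229-R with DMSO and 13844 ± 1017 in LN229 with DMSO, against 5.60 ± 3.21 in U87-R with DMSO and 2.11 ± 0.901 in U87 MG with DMSO (SD, n = 3 each). In the DMSO libraries of the LN229 STM2457 tables FABP7 had between 3155 and 5857 normalized counts and SOX2 between 903 and 1379. CD44, NES, SALL2 and SOX9 were present in both families.

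**Figure D2:**
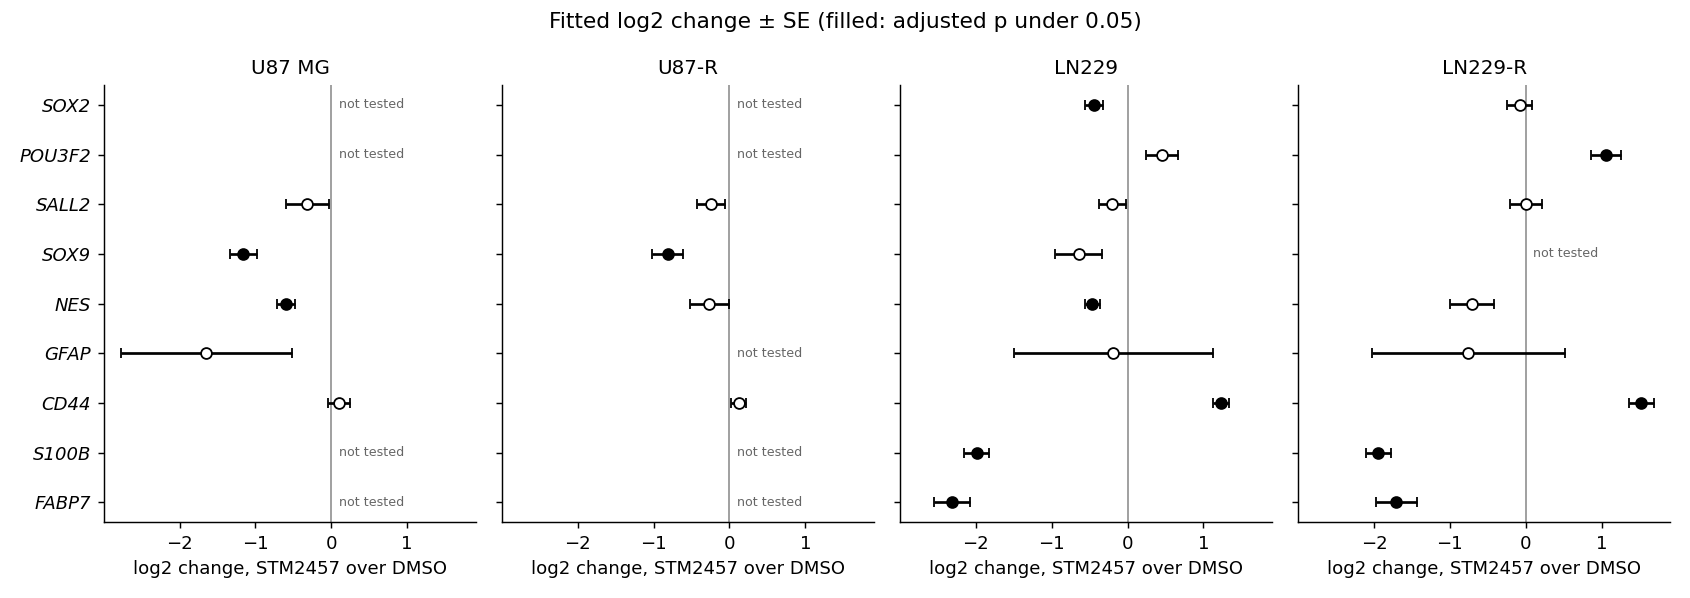
Log2 change with STM2457 against DMSO for each gene tested in each line (points, with SE bars; filled points passed an adjusted p under 0.05). CD44 lies at 1.24 and 1.53 in LN229 and LN229-R and at 0.11 and 0.12 in U87 MG and U87-R.

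The CD44 response differed between the families when the difference itself was tested. The log2 change with STM2457 was larger in LN229 than in U87 MG by 1.13 (SE 0.19, adjusted p = 0.0014 by limma over 12 libraries). CD44 was the 1 of 5 members tested that passed, where 18.8% of 13887 genes did. Between LN229-R and U87-R the difference in log2 change was 1.41 (SE 0.20, adjusted p = 0.00049), and CD44 was again the 1 member of 3 that passed, where 14.4% of 13759 genes did. With the LN229 names exchanged, an alternative chosen after the disagreement of names was seen, the CD44 difference was 1.42 against U87 MG (SE 0.23, adjusted p = 0.0014) and 1.12 against U87-R (SE 0.15, adjusted p = 0.00033). For NES the difference between LN229-R and U87-R was -0.44 (SE 0.43) and did not pass, although it passed with the replicate number as a block (adjusted p = 0.016). SOX9 fell in both U87 lines and did not pass in LN229, but its response did not differ detectably between LN229 and U87 MG (difference 0.52, SE 0.38, adjusted p = 0.36).

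Between a resistant line and its parental line no member's difference in response passed, which does not show that the responses were alike. In U87-R minus U87 MG none of 4 members tested passed, with 0% of 15680 genes passing by limma and 586 at an unadjusted p under 0.05. For SOX9 this difference was 0.34 (SE 0.27) and for NES 0.33 (SE 0.31), both toward a smaller fall in U87-R. In LN229-R minus LN229 none of 8 members tested passed, where 0.00606% of 16511 genes did and 651 genes had an unadjusted p under 0.05. The difference was 0.29 (SE 0.18) for CD44, 0.05 (SE 0.25) for S100B, 0.60 (SE 0.41) for FABP7, 0.61 (SE 0.32) for POU3F2 and 0.36 (SE 0.21) for SOX2. A response of SOX2 or POU3F2 in 1 of these lines alone is therefore not shown, since each passed in 1 table and its difference did not.

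With DMSO, U87-R held more NES and SALL2 than U87 MG. Of 5 members tested, 2 were higher and none lower, where 4.27% of 16306 genes passed, and the members' median log2 difference was 0.47 against -0.01 over all genes. These DMSO libraries are the controls of the U87 STM2457 comparisons too. SALL2 had 189, 172 and 188 normalized counts in U87-R and 52.2, 51.2 and 48.6 in U87 MG. Replicates lay close together and far from the other line, with a log2 difference of 1.83 (SE 0.19, adjusted p = 0.0015 by limma).

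NES had 1726, 2117 and 3313 normalized counts in U87-R and 1169, 929 and 1023 in U87 MG. The groups did not overlap, and the log2 difference was 1.15 (SE 0.22, adjusted p = 0.020). NES no longer passed without U87-R replicate 2 (adjusted p = 0.061), U87 MG replicate 2 (adjusted p = 0.094) or U87 MG replicate 3 (adjusted p = 0.059). SOX9 had 318, 410 and 518 normalized counts in U87-R and 328, 296 and 259 in U87 MG, which overlapped at 1 library (log2 difference 0.47, SE 0.20, adjusted p = 0.26). CD44 had 21888, 23746 and 26985 normalized counts in U87-R and 25270, 28198 and 33242 in U87 MG (log2 difference -0.25, SE 0.13, adjusted p = 0.38). GFAP was between 1.38 and 13.8 normalized counts in U87-R and between 0.551 and 38.3 in U87 MG and did not pass.

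In the LN229 resistance table the libraries labelled LN229-R held more SOX9 and less S100B than those labelled LN229. Of 9 members tested, 1 was higher and 1 lower, where 9.25% of 17136 genes passed, and the members' median log2 difference was -0.04 against -0.01 over all genes. SOX9 had 166, 100 and 94.2 normalized counts in libraries labelled LN229-R and 6.70, 18.4 and 18.2 in those labelled LN229. The groups were far apart, with a log2 difference of 3.04 (SE 0.41, adjusted p = 0.0042 by limma). In the STM2457 tables the order was the other way round: DMSO libraries labelled LN229-R had 6.64 to 18.4 normalized counts of SOX9, and those labelled LN229 had 84.3 to 148.

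S100B had 15455, 16867 and 14624 normalized counts in libraries labelled LN229-R and 23397, 29536 and 20492 in those labelled LN229. The groups did not overlap, and S100B was lower by a log2 difference of -0.63 (SE 0.14, adjusted p = 0.030). It did not pass without any of the 3 libraries labelled LN229-R or without LN229 replicate 1, with adjusted p between 0.065 and 0.14. FABP7 had 4302, 4570 and 3539 normalized counts in libraries labelled LN229-R and 5513, 5840 and 4037 in those labelled LN229. Its groups overlapped, and the log2 difference of -0.30 (SE 0.16) did not pass. Same-numbered libraries deviated together in this table, and with the replicate number as a block FABP7 passed (adjusted p = 0.033), as did 2600 genes in all.

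POU3F2 had 453, 455 and 563 normalized counts in libraries labelled LN229-R and 689, 434 and 700 in those labelled LN229. The library that stood apart was the low one, and without it POU3F2 was lower by a log2 difference of -0.51 and passed (adjusted p = 0.022), against -0.28 with it (SE 0.20, adjusted p = 0.43); over all 6 libraries left out in turn the value ran from -0.51 to -0.16. NES had 12837, 12570 and 13372 normalized counts in libraries labelled LN229-R and 14489, 8579 and 14522 in those labelled LN229, where the same library was the low one. The log2 difference was 0.09 with that library and -0.17 without it, and neither passed. SOX2, SALL2 and CD44 had log2 differences of -0.04, 0.05 and -0.06, with SEs of 0.16, 0.18 and 0.12. GFAP had 4.20, 209 and 14.9 normalized counts in libraries labelled LN229-R and 4.83, 76.9 and 0.571 in those labelled LN229, with replicate 2 highest in both.

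The resistant-minus-parental difference itself differed between families for SOX9 and SALL2, as labelled. LN229 family minus U87 family, it was 2.57 on the log2 scale for SOX9 (SE 0.49, adjusted p = 0.0054 by limma) and -1.78 for SALL2 (SE 0.26, adjusted p = 0.00081). With the names in the LN229 resistance table exchanged, the SOX9 value turned round to -3.52 (SE 0.49, adjusted p = 0.00064) and the SALL2 value was -1.88 (SE 0.26, adjusted p = 0.00057), so the direction for SOX9 is not settled. These were 2 of 5 members tested, where 8.88% of 13890 genes passed. For NES the difference was -1.06 (SE 0.32, adjusted p = 0.057), and it passed without LN229 replicate 2 (-1.31, adjusted p = 0.0098), without U87-R replicate 1 (-1.27, adjusted p = 0.026) and with the names exchanged (-1.23, adjusted p = 0.034).

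**Figure D3:**
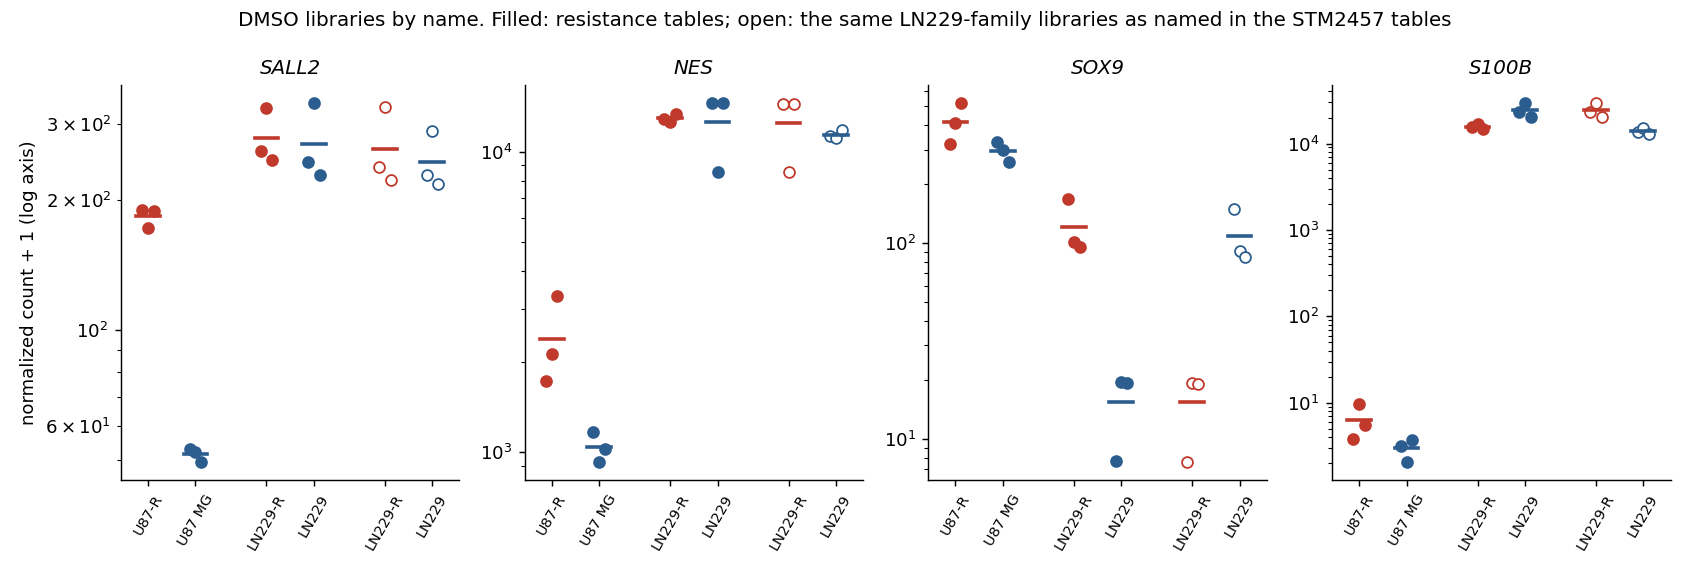
Normalized counts of SALL2, NES, SOX9 and S100B with DMSO in each library (points, with bars for group means), on a logarithmic axis of normalized count + 1. The resistant line is left of its parental line. Filled points are from the resistance tables, with LN229 names as in that table. Open points are the same LN229-family libraries as named in the STM2457 tables. Among filled points, SALL2 and NES lie higher in U87-R than in U87 MG. Among filled points of the LN229 family, SOX9 lies higher and S100B lower in libraries labelled LN229-R than in those labelled LN229, and open points run the other way.

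Further genes of the stem programme, listed by function, went in both directions with STM2457. Over all genes tested, 49.7% passed with STM2457 in libraries labelled LN229, 38.6% in those labelled LN229-R, 13.6% in U87 MG and 14.7% in U87-R. These shares stand beside the counts of the lists that follow as well. In libraries labelled LN229, 6 of 19 tested rose and 7 fell, with a median log2 change of -0.07. SOX8, a SOX factor of glia, had the largest fall there (log2 change -3.26, SE 0.18, adjusted p = 1.1e-05 by limma), followed by RCOR2, a corepressor (-1.52). In libraries labelled LN229-R, 5 of 18 rose and 5 fell, with a median of -0.24, and SOX8 (-4.75) and RCOR2 (-2.04) again changed most. OLIG2, described above together with POU3F2, SOX2 and SALL2, fell in both. Its log2 change was -1.36 in libraries labelled LN229 and -1.72 in those labelled LN229-R, and it did not pass in U87 MG or U87-R. In U87 MG 3 of 20 rose and 2 fell, with SOX4, a progenitor factor, among those that rose (1.20). In U87-R none of 18 rose and 3 fell, among them the integrin subunit ITGA6 (-1.86) and the histone methyltransferase EZH2 (-0.88).

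Further astrocyte genes also split with STM2457. In libraries labelled LN229, 6 of 17 tested rose and 5 fell, with a median log2 change of -0.14. GLUL, which encodes glutamine synthetase, rose by 2.03 (SE 0.10, adjusted p = 7e-06 by limma) and APOE, the apolipoprotein secreted by astrocytes, by 1.53. In libraries labelled LN229-R, 5 of 15 rose and 4 fell, with a median of 0.64. There FGFR3, a growth factor receptor of astrocytes, fell by 2.36 on the log2 scale and ALDOC, an astrocyte aldolase, rose by 1.97. In U87 MG 2 of 17 rose and 1 fell, and ALDOC changed by -0.87 and GLUL by 0.73. In U87-R 1 of 15 rose, APOE (0.99), and 1 fell, ALDOC (-0.94).

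The list of CD44 ligands, cytoskeletal linkers and other mesenchymal glioma genes also went in both directions. In libraries labelled LN229, 8 of 23 tested rose and 7 fell, with a median log2 change of 0.03. CHI3L1, a secreted glycoprotein of mesenchymal glioma, rose by 5.13 (SE 0.64, adjusted p = 0.00041 by limma), and SPP1, which encodes the CD44 ligand osteopontin, by 3.08. In libraries labelled LN229-R, 4 of 22 rose and 5 fell, with a median of 0.06. CEBPD (4.14) and FOSL2 (2.60), transcription factors of the mesenchymal programme, rose most there. ANXA1 fell most in both, with a log2 change of -2.45 in libraries labelled LN229 and -2.18 in those labelled LN229-R. In U87 MG 4 of 24 rose and 4 fell, with SPP1 among those that rose (1.42). In U87-R 2 of 24 rose and 5 fell, with the matrix protein gene TGFBI changing most (-1.62) and CHI3L1 lower as well (-1.01).

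Filament genes other than NES and GFAP are given by their counts, beside 4474 genes of all that rose and 4032 that fell with STM2457 in libraries labelled LN229 and 1289 that rose and 939 that fell in U87 MG. Of 8 tested in libraries labelled LN229, 2 rose and 5 fell, with a median log2 change of -0.66, and the nuclear lamin genes LMNB1 (-1.51) and LMNB2 (-0.95) fell. Libraries labelled LN229-R had 1 of 8 higher and 4 lower, with LMNB1 at -1.83 and LMNB2 at -0.97. In U87 MG 2 of 7 fell and in U87-R 2 of 9 fell, the lamin genes LMNB1 (-0.84 in U87 MG and -0.63 in U87-R) and LMNA (-0.40 in U87 MG and -0.35 in U87-R) in both, and none rose.

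In the U87 resistance comparison 2 of 18 stem genes and 3 of 16 astrocyte genes were higher in U87-R and none was lower. Over all genes tested, 4.27% passed in that comparison and 9.25% in the LN229 one. L1CAM, an adhesion molecule (log2 difference 3.27), and RCOR2 (1.76) passed among stem genes, and SLC1A2, the astrocyte glutamate transporter (1.89), and CLU, which encodes clusterin (0.78), among astrocyte genes. In libraries labelled LN229-R 4 of 18 stem genes were higher and 3 lower than in those labelled LN229, with SOX11, a progenitor factor, at 6.10 and L1CAM at 2.34. Of 16 astrocyte genes 5 were higher and none lower, led by SLC4A4, a bicarbonate transporter (4.18), and CLU (3.01). Of the CD44 list 2 of 24 were higher in U87-R, CHI3L1 (1.15) and MMP14 (0.63), and in libraries labelled LN229-R CEBPD was higher (1.47) and MMP14, a matrix protease that can cleave CD44, lower (-0.50) among 23 tested. Of filament genes 2 of 7 were higher in U87-R, KRT8 (1.06) and LMNA (0.53), and 2 of 8 were higher in libraries labelled LN229-R, SYNM (0.56) and KRT18 (0.56).

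**Figure D4:**
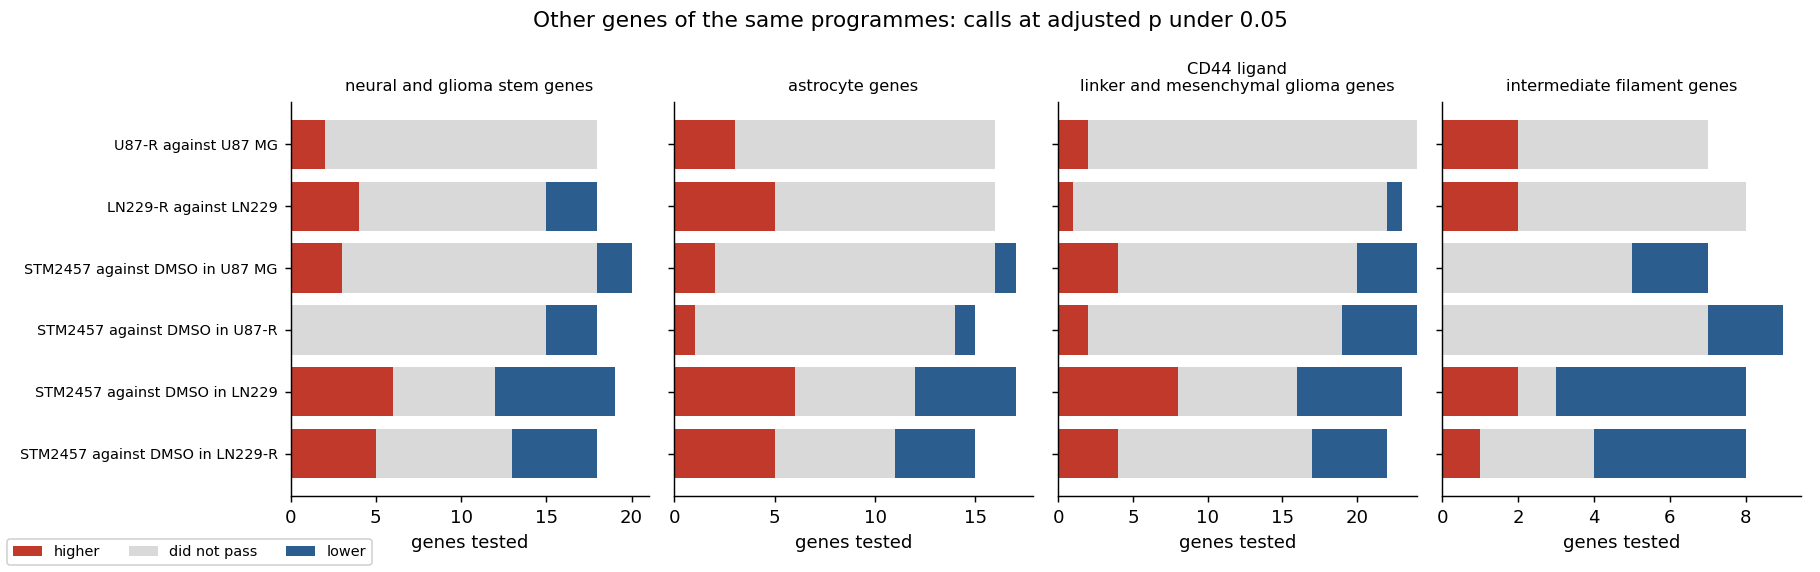
Numbers of genes that were higher or lower (adjusted p under 0.05) or tested without passing, in 4 lists of related genes, for each comparison. In LN229 with STM2457 the stem list has 6 higher and 7 lower of 19 tested.

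Markers of other cell types moved beside these changes. In libraries labelled LN229 the summed immune markers lay between 276 and 711 normalized counts with STM2457 and between 81.1 and 120 with DMSO, with 4 of 8 markers listed, and CD68, a lysosomal protein, was the 1 of 2 tested that rose (log2 change 2.34). PTPRC, the pan-leukocyte CD45, was not analysed in that table and reached at most 5.36 normalized counts in libraries labelled LN229-R. Summed endothelial markers lay between 227 and 263 normalized counts with STM2457 and between 72.3 and 78.7 with DMSO, with 5 of 6 listed and 3 of 4 tested higher, among them KDR, the VEGF receptor (2.87), and PECAM1 (1.59). In libraries labelled LN229-R the immune sum was 216 to 726 with STM2457 and 60.6 to 95.4 with DMSO, with CD68 at a log2 change of 2.53, and the endothelial sum was 171 to 193 with STM2457 and 56.3 to 106 with DMSO, with KDR at 2.86. Oligodendrocyte markers summed to 67702 to 70984 with STM2457 and 79629 to 80583 with DMSO in libraries labelled LN229, where 2 of 8 tested rose and 3 fell, MAG, a myelin protein, by the most (log2 change -5.04). Neuron markers summed to 9642 to 9896 with STM2457 and 10256 to 10576 with DMSO, with 1 of 6 higher and 3 lower, SNAP25, a synaptic protein, by the most (-1.80). Fibroblast and pericyte markers summed to 2411 to 5298 with STM2457 and 3256 to 4602 with DMSO, with 1 of 8 higher and 3 lower, RGS5, a pericyte regulator, by the most (-2.94).

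Side by side and without a test, since tables were normalized separately and kits differed, summed immune markers were higher in the U87 than in the LN229 family. In U87 MG they lay between 13298 and 20470 normalized counts with STM2457 and between 11882 and 14927 with DMSO, which overlapped. Of the 8 markers 2 averaged at least 10 normalized counts there, and neither of the 2 tested passed. Fibroblast and pericyte markers fell in part with STM2457, 3 of 8 in U87 MG, where COL3A1, a fibrillar collagen gene, changed most (log2 change -2.87), and 3 of 8 in U87-R, where COL1A1 did (-1.89) and 1 marker rose. Between U87-R and U87 MG with DMSO, CSF1R was lower (-0.79) and was the 1 immune marker of 2 tested that passed. With DMSO, 4 of 8 fibroblast and pericyte markers were higher in libraries labelled LN229-R than in those labelled LN229 and 1 was lower, COL3A1 by a log2 difference of 4.86, and MBP, a myelin protein gene, was the 1 oligodendrocyte marker of 8 that was higher (2.71), with 2 lower. The part of the marker changes of these lists in the members' results was not tested.

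Across the 24 libraries of the STM2457 tables, with each table's own mean taken away, the genes whose log2 values ran most like those of a member were found among 11220 named genes. CD44 was most like FOSL2 (Pearson r 0.98) and ITPRIP (0.98), S100B like TRO (0.94) and MBTPS1 (0.93), and FABP7 like PRPF3 (0.93) and COPB1 (0.90). NES was most like DPYSL3 (0.92) and TFDP1 (0.90), and SOX9 like NUMA1 (0.89) and C12orf57 (0.88). These are descriptions over libraries that share treatment and depth. A minimum mean of 50 normalized counts was asked of the compared genes and not of the member. S100B and FABP7 were near the floor in the U87 tables, so their r draws partly on values too low to test. For S100B with TRO r was 0.99 within the LN229 tables and 0.89 within the U87 tables, and for FABP7 with PRPF3 0.96 and 0.90. Within the LN229 tables r for CD44 and FOSL2 was 0.99, and within the U87 tables, where CD44 did not pass, it was 0.73.

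Some members share their locus with other annotated genes, and the sources used here do not give whether counting used the strand. SOX2 lies inside the same-strand transcript SOX2-OT, and PROM1 overlaps FGFBP2 on its own strand. SOX9-AS1, CD44-AS1 and AL161747.2 run opposite SOX9, CD44 and SALL2, and CCDC103 and FAM187A opposite GFAP. Reads of these pairs could have been shared, so the values of SOX2 and of the 5 members with a partner are uncertain to that extent.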

How the data were processed

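Polyadenylated RNA of 24 libraries was sequenced. The submitters' processing notes name Trimmomatic 0.39, STAR 2.7.11a, Salmon 1.4.0, DESeq2 and GRCh38 (hg38). These names were taken from the notes of the first sample listed. The authors deposited 6 tables of normalized counts, a depth-scaled signal per gene (the unit is a signal, not raw counts); whole reads could not be recovered, so read depth behind a value is unknown and no counting interval is given. Gene symbols matched 28006 of 28099 identifiers in the U87 resistance table and 21194 of 22676 in the LN229 one. Columns were mapped to samples by name.

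Values were taken as log2(normalized count + 1), so changes of low genes are understated. Each comparison was fitted within its own table on genes with a mean of at least 10 over its 6 libraries, with limma 3.58.1 in R 4.3.3, a variance trend and Benjamini-Hochberg adjustment over all genes tested, two-sided, and passed at an adjusted p under 0.05. Differences between 2 comparisons were fitted over 12 libraries with a separate intercept per table and a minimum mean of 10 in both. The fit was tested on simulated data. The 10 genes and the lists of related genes were chosen with earlier results of these data known. All 10 were named. Of each list, at most 2 genes that passed with the largest change in a comparison were named, and markers of other cell types in the same way. OLIG2 and ANXA1, and CHI3L1 in U87-R, were named in addition to this rule. Some genes that met this rule are not reported here.

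The labels do not say what a replicate number stands for. The correlation of same-numbered libraries' deviations from their group means was over 0.1 for every number in LN229-R against LN229 (0.13, 0.20 and 0.11), in STM2457 against DMSO in U87-R (0.17, 0.11 and 0.30) and in LN229-R (0.18, 0.32 and 0.10); only there are blocked values given with the results. Alternatives were pseudocounts of 0.5 and 5, no minimum mean or one of 50, a fit with the replicate block or with no variance trend, libraries rescaled to equal totals or upper quartiles, each library left out and, added after seeing the data, the LN229 names exchanged. Raw reads were not used here.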

Additional observations from a re-analysis of the deposited data

Results flagged for a closer look

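Effects of the same contrast differed between cell lines in 4 cases, each by limma's test of the difference. For CD44 the log2 change with STM2457 was larger by 1.13 in LN229 than in U87 MG (SE 0.19, adjusted p = 0.0014), with CD44 higher in 3 of 3 treated LN229 libraries than in any control. It was larger by 1.41 in LN229-R than in U87-R (SE 0.20, adjusted p = 0.00049), again in 3 of 3 treated libraries. For SOX9 the resistant-minus-parental difference was larger by 2.57 in the LN229 family as labelled than in the U87 family (SE 0.49, adjusted p = 0.0054), and -3.52 with the LN229 names exchanged. For SALL2 it was -1.78 (SE 0.26, adjusted p = 0.00081), and -1.88 with the names exchanged. The kit, medium and line differ together between the families and cannot be told apart.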

How the results depend on the processing

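Calls of members kept their direction and side of the threshold in most alternatives, and the sign of a value that passed changed only for SOX9 in the resistance difference, to -3.52 with the LN229 names exchanged, an alternative chosen after seeing the data that turns the LN229 term round by construction. Without the variance trend 1 member passed in U87-R against U87 MG (NES was lost), 1 in LN229-R against LN229 (S100B was lost) and 0 with STM2457 in U87-R (SOX9 was lost), and the cause was not tested. With the replicate block 2 members passed with STM2457 in U87-R and 2 in the LN229-R minus U87-R response, NES being added in both. In comparisons whose numbers do not pair libraries by the correlation check, the replicate block left 2 members called in U87-R against U87 MG and in U87 MG with STM2457. It gave 7 in LN229 with STM2457, where SOX9 (adjusted p = 0.030 by limma) and POU3F2 (adjusted p = 0.028) were added. In the resistance difference numbers pair libraries in the LN229 table and not in the U87 table. There the block gave 3 members, with NES added (adjusted p = 0.040 by limma). With equal upper quartiles NES passed with STM2457 in LN229-R (log2 change -0.78, adjusted p = 0.046) and in the resistance difference (-1.04, adjusted p = 0.042). Over all genes, counts past the threshold moved by over 1.5 times without the variance trend to 396 (U87-R against U87 MG), 951 (LN229-R against LN229), 1301 (STM2457 in U87 MG) and 1372 (U87-R), and with the replicate block to 1176, 2600, 4137 and 4796 in that order, to 3757 in the LN229-R minus U87-R response and to 1976 in the resistance difference.

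Leaving out each library in turn gave 1 to 2 members in U87-R against U87 MG, 1 to 3 in LN229-R against LN229, and with STM2457 1 to 3 in U87 MG, 0 to 1 in U87-R, 4 to 6 in LN229 and 4 to 5 in LN229-R. Over all genes it gave 315 to 607, 534 to 3262, 890 to 1803, 884 to 2217, 6591 to 8621 and 4364 to 6425 in the same order, the 3262 without LN229 replicate 2.

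Signs changed for values near 0 or with wide errors that passed in neither setting. With equal totals SOX2 in LN229-R against LN229 was 0.0097, and with equal upper quartiles SALL2 with STM2457 in LN229-R was -0.074, CD44 in the U87-R minus U87 MG response -0.058, and in the LN229 minus U87 MG response NES was -0.016 and SALL2 -0.030. With the LN229 names exchanged NES in that response was -0.11 and GFAP in the resistance difference -1.16. Leaving out libraries, log2 differences ran from -1.61 to 0.37 for GFAP in U87-R against U87 MG and, in LN229-R against LN229, from -0.18 to 0.040 for CD44, -0.17 to 0.21 for NES, -0.069 to 0.22 for SALL2 and -0.22 to 0.067 for SOX2. With STM2457 they ran from -0.49 to 0.0024 for NES in U87-R, -1.35 to 1.33 for GFAP in LN229, and in LN229-R from -0.15 to 0.17 for SALL2 and -0.26 to 0.029 for SOX2. Differences of responses ran from -0.098 to 0.11 for CD44 and -0.076 to 0.30 for SALL2 in U87-R minus U87 MG, from -2.09 to 0.59 for GFAP, -0.49 to 0.039 for NES and -0.10 to 0.25 for S100B in LN229-R minus LN229, and from -0.035 to 0.34 for SALL2 in LN229 minus U87 MG. The GFAP ranges cover 5 libraries left out in U87-R against U87 MG and 11 in LN229-R minus LN229. Without the library not covered, GFAP was under the minimum mean and was not tested.

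With 3 libraries a group and no read counts, small changes of PROM1, GFAP and other genes near the floor could not be detected.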
